A study of Homo sapiens with 24 samples.

Results

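The cytosolic ribosomal protein genes were followed through 24 RNA-seq libraries of 2 human cancer cell lines. Members were the symbols made of RPL or RPS, a number and, where present, the ending A, X, L or AL, together with RPLP0, RPLP1, RPLP2 and RPSA. This gave 82 of the 60641 symbols listed in all libraries, 50 for the large subunit of the ribosome and 32 for the small subunit. Pseudogene symbols and the Y-linked copies of RPS4X were not members. FAU, which encodes a ribosomal protein fused to a ubiquitin-like sequence, falls outside the rule by its symbol.

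The study used CRISPR/Cas9 to delete the DNA binding domains (DBDs) of long noncoding RNAs and sequenced RNA before and after the knockout (KO). The cells were A549, a human lung adenocarcinoma line, and HCT116, a human colorectal carcinoma line. A549 cells were wild type (WT B), MSTRG.2513.6 DBD KO or MSTRG.4401.1 DBD KO. HCT116 cells were DBD KOs of MSTRG.2513.6, MSTRG.4401.1 or MSTRG.34636.7, or wild type in 2 sets, WT A and WT B, named by the letter in the sample titles. Each of the 8 groups had 3 libraries, from total RNA depleted of rRNA. MSTRG.34636.7 KO and WT A were numbered 1A to 3A and were compared with each other, and the other KOs were compared with WT B of their own cell line. The labels give neither the number of clones behind a KO nor whether the 3 libraries came from separate cultures, so the p-values measure the spread between these samples, which may be technical. No count was listed under the name of a deleted transcript, so the deletions were not checked here.

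A cytosolic ribosome is built from rRNA and one copy of most ribosomal proteins, and a growing cell spends much of its transcription on these parts. The mRNAs of ribosomal proteins typically begin with a cytidine followed by a run of pyrimidines, the 5′ terminal oligopyrimidine (TOP) tract, through which mTORC1 and the RNA-binding protein LARP1 control their translation together. A few members are paralogs with restricted expression, such as RPL3L of heart and skeletal muscle and RPL10L and RPL39L of the male germ line, and RPS27L is a paralog of RPS27.

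The sequences around the transcription start are shown for the 3 members with the largest decrease in A549 MSTRG.4401.1 KO (RPL7A, RPL35 and RPL26), for RPS16 and RPS19, which differed most between the cell lines beside the paralogs, and for RPL39, RPS27, RPS27L and RPS29, the partners of paralogs or the members that stood apart below. Each is 30 bases before and 20 bases from the annotated start in RefSeq, build GRCh38.p14, written 5′ to 3′ on the strand of the gene, with the run of pyrimidines at the start in capitals. The positions were chr9:133348188-133348237 (plus strand) for RPL7A, chr9:124861938-124861987 (minus) for RPL35, chr17:8383174-8383223 (minus) for RPL26, chr19:39435930-39435979 (minus) for RPS16, chr19:41860225-41860274 (plus) for RPS19, chrX:119791611-119791660 (minus) for RPL39, chr1:153990732-153990781 (plus) for RPS27, chr15:63157458-63157507 (minus) for RPS27L and chr14:49598691-49598740 (minus) for RPS29.
RPL7A: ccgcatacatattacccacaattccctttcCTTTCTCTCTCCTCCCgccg
RPL35: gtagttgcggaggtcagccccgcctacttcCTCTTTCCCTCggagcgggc
RPL26: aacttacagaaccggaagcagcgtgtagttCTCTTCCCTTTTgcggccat
RPS16: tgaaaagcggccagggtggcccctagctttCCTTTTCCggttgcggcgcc
RPS19: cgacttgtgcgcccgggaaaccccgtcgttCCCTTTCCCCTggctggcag
RPL39: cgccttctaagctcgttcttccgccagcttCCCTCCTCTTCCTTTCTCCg
RPS27: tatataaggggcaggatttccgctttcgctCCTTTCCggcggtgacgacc
RPS27L: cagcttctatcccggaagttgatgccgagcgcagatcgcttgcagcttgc
RPS29: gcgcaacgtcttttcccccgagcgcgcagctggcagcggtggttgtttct

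The run from the annotated start was 16 bases in RPL7A, 11 in RPL35, 12 in RPL26, 8 in RPS16, 11 in RPS19, 19 in RPL39 and 7 in RPS27, and RPS27L and RPS29 had none there. A start was found for 65 of the 82 members. Of these 65, 46 (70.8%) began with C followed by 4 or more pyrimidines, against 1404 of all 27305 genes with a start (5.14%). A gene with several annotated starts was counted here and below if any of them matched. The letters CCGGAAG, searched on both strands in the 300 bases around the start, were found in 23 of 65 members (35.4%) and in 12.2% of all genes. TATAAA, searched in the 50 bases before the start on the strand of the gene, was found in 3 of 65 members, and in 3.33% of all genes. The median number of CG dinucleotides in the 300 bases was 25 in members and 16 in all genes, with the highest number taken for a gene with several starts. These matches describe sequences, and the 17 members without an entry were not included.

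Library totals ran from 25799359 to 102261808 counts, and levels are given as CPM, the counts scaled to a common library total. Ribosomal proteins have many processed pseudogenes, and reads that fit a gene and its copies may have been split between them by the counting. The 1206 pseudogene symbols of the family held 1.76% to 4.13% as many counts as the members in a library. RPL36A, RPL17 and RPS10 share exons with readthrough genes, and whether counting used the strand is not given in the sources used here, so overlapping genes are uncertain too. In bulk libraries fewer cells of a type and less RNA per cell cannot be told apart. Among the 3 samples labelled as HCT116 MSTRG.2513.6 KO, libraries S8 and S9 stood apart from the third, S11. The A549 markers AKR1B10 and ALDH1A1 were at 2289 and 4324 CPM in S8 and at 2264 and 4611 CPM in S9, but at 0.605 and 0 CPM in S11. The epithelial and intestinal markers EPCAM and CDX2 were at 111 and 18.2 CPM in S11, at 0.890 and 0.636 CPM in S8 and at 1.31 and 0.406 CPM in S9. Of the 16 markers listed for the lines, 12 did not overlap between A549 WT B and HCT116 WT B, and in 11 of these S8 and S9 lay nearer to A549 and S11 nearer to HCT116. VIL1, at 1.10 CPM in S8 and 0.334 CPM in S9, was the exception. Only 8 of the 12 were higher in the line they were listed for. NKX2-1, listed for A549, was higher in HCT116, and CDH17, EPHB2 and VIL1, listed for HCT116, were higher in A549. SFTPB overlapped between the lines, and ASCL2, CDX1 and LGR5 were near 0 in both. Results that rest on S8 and S9 are therefore given with and without them.

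The members together took between 2.09% and 5.57% of the counts of a library. In A549 WT B the share was 3.75%, 3.65% and 3.43%, in MSTRG.2513.6 KO it was 3.62%, 3.47% and 3.16%, and in MSTRG.4401.1 KO it was 2.93%, 2.09% and 2.67%. Every A549 MSTRG.4401.1 KO library was below every other A549 library. In HCT116 WT B the share was 3.79%, 3.94% and 3.91%, and in HCT116 MSTRG.4401.1 KO it was 3.81%, 3.82% and 3.75%, so these groups overlapped. MSTRG.34636.7 KO held 5.33%, 5.33% and 5.57%, above WT A with 4.69%, 3.83% and 5.20%, where the 3 libraries differed by more than in any other wild-type set. The samples labelled as HCT116 MSTRG.2513.6 KO held 4.42% in S11, 3.57% in S8 and 3.41% in S9. Counting error was small beside these differences. The share of 2.09% in S24, the lowest, had a 95% Wilson interval of 2.08% to 2.10%, which covers counting error only, since the reads carried no molecular identifiers and may copy the same molecule. The large subunit members held 1.34 to 1.58 times as many counts as the small subunit members in a library.

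**Figure D1:**
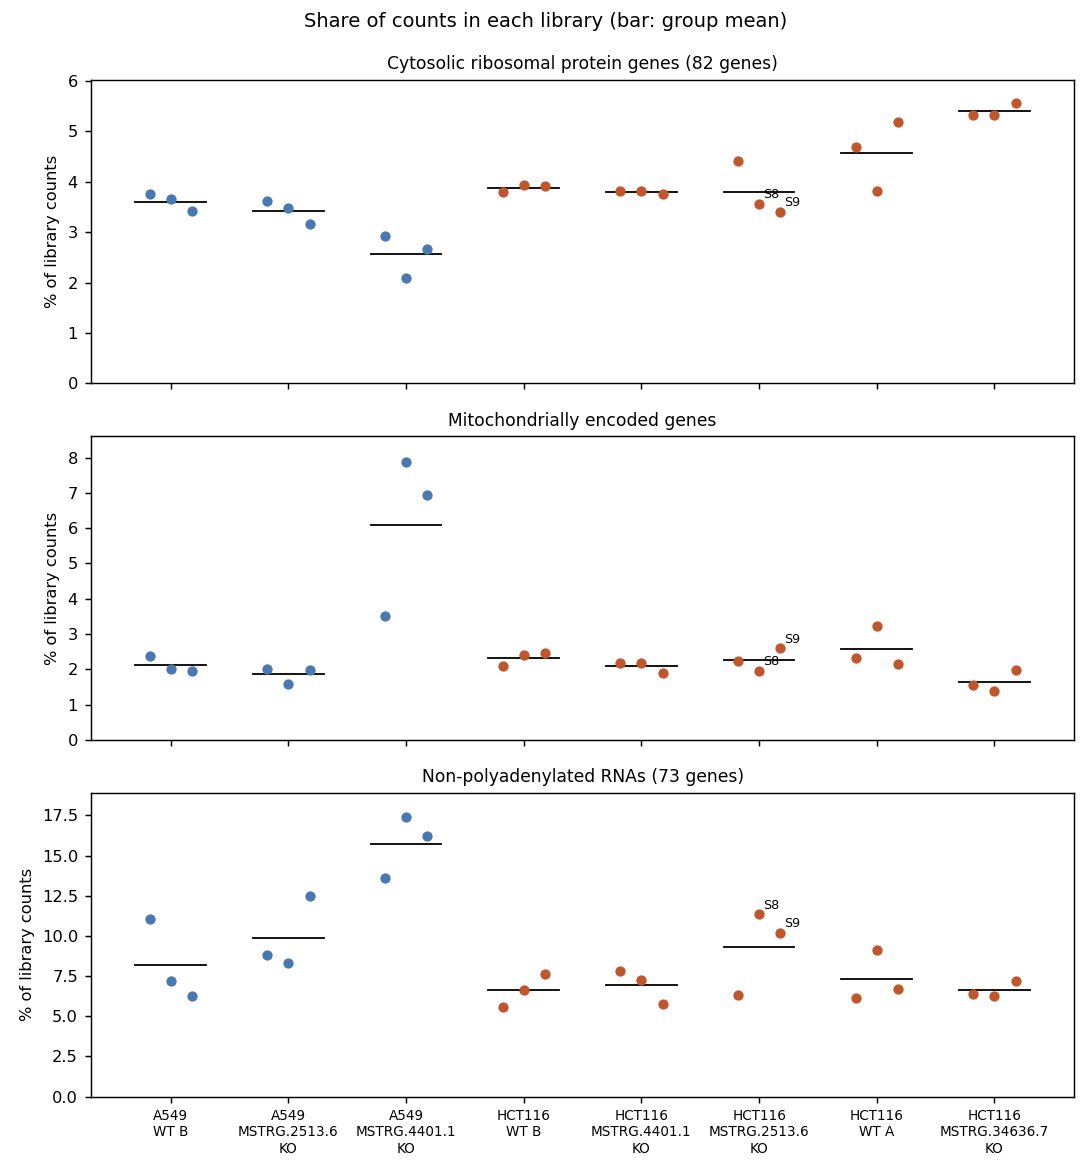
Percent of each library's counts (y axes, from 0) that fell on the 82 cytosolic ribosomal protein genes, on mitochondrially encoded genes and on 73 non-polyadenylated RNAs, by group (x axis). Each point is a library and each bar the mean of 3; for the members A549 MSTRG.4401.1 KO (2.56% ± 0.431, SD) lies below A549 WT B (3.61% ± 0.167), while the other 2 classes are higher there, and the 3 WT A libraries are spread around 4.57% ± 0.693.

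Per kilobase of exon, the highest level as a mean of the 24 libraries was that of RPLP0, the acidic protein at the base of the ribosomal stalk, with 1909 CPM per kb. It was followed by RPS2 (1653 CPM per kb), RPL13A (1548), RPSA, the laminin receptor precursor of the small subunit (1217), and RPL7A (1113). The order depended on the length used. Per kilobase of coding sequence RPL41, which encodes the shortest protein of the family, was the highest (4564 CPM per coding kb), followed by RPL13A (2864) and RPS19 (2733), and RPLP0 (2219) ranked 5. The lowest levels per kb were those of the tissue-restricted paralogs RPL10L (0.00359 CPM per kb), RPL3L (0.174) and RPL39L (5.25). RPL10L had 4 counts in a single HCT116 WT B library (0.0665 CPM) and 0 in the other 23, which allows up to 0.116 CPM in the shallowest library and 0.0293 CPM in the deepest at 3 counts. RPL3L lay between 0 and 1.22 CPM in all libraries, and its ubiquitous partner RPL3 between 522 and 2365 CPM.

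RPL39L was the member with an all-or-none difference between the lines. It was at 12.9, 8.51 and 6.42 CPM in A549 WT B, and at 0 in all HCT116 WT B and HCT116 MSTRG.4401.1 KO libraries. MSTRG.34636.7 KO held 0.0655, 0 and 0.0426 CPM and WT A 0.150, 0 and 0 CPM. Set against 3 counts in each HCT116 WT B library, the A549 WT B level of 9.29 ± 3.33 CPM (SD, n = 3) was at least 181-fold higher. Of the samples labelled as HCT116 MSTRG.2513.6 KO, S11 had 0 CPM of RPL39L, while S8 had 8.84 and S9 had 9.53 CPM, within the range of the A549 libraries. RPL39, the partner of RPL39L at the peptide exit tunnel, was present in every library, from 122 to 281 CPM.

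In A549 MSTRG.4401.1 KO, 57 of 81 members tested fell at FDR < 0.1 and 0 rose (edgeR quasi-likelihood, p-values adjusted by Benjamini-Hochberg over all genes). Of all 24979 genes tested, 22.4% fell and 21.3% rose. The decrease was shared by both subunits, with 33 of 49 large and 24 of 32 small subunit members. Their median log2 fold change was -0.52, and 2 of 81 members were above 0, whereas the median of all genes was 0.12. Relative to all genes the members therefore lay 0.64 lower. In 43 of 81 members, called or not, the KO and WT B libraries did not overlap, against 48% of all genes tested, so this count was near the background.

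**Figure D2:**
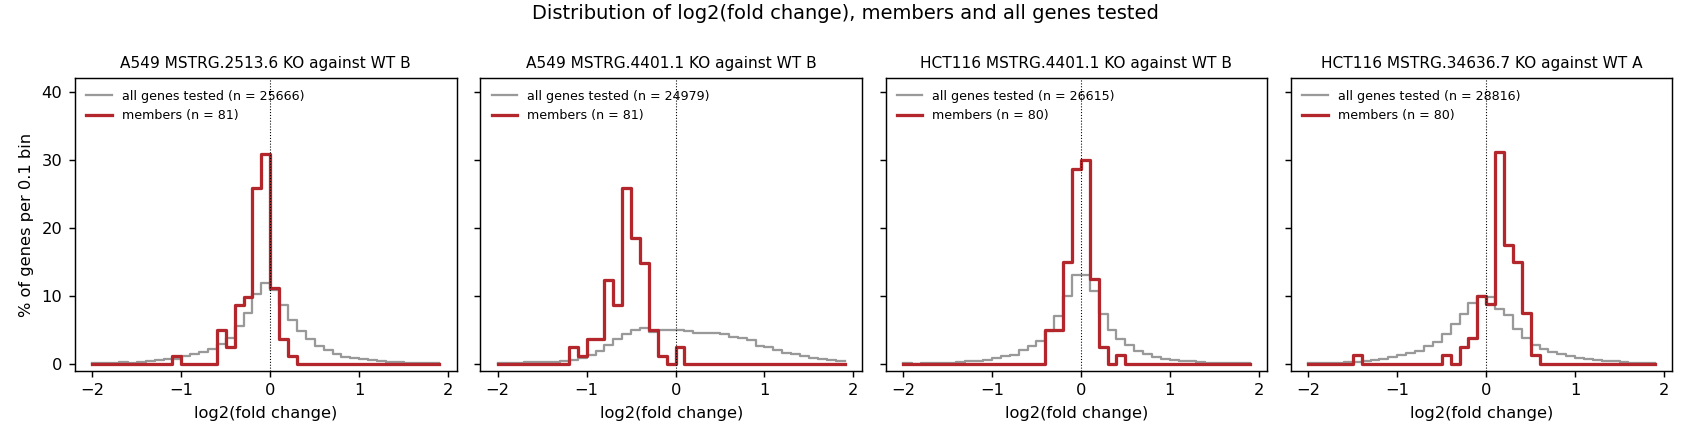
Distribution of the log2 fold change (x axis) of the members and of all genes tested, as percent of genes per bin of 0.1 (y axis), for A549 MSTRG.2513.6 KO, A549 MSTRG.4401.1 KO, HCT116 MSTRG.4401.1 KO and HCT116 MSTRG.34636.7 KO, each against its wild type. The members centre on -0.52 in A549 MSTRG.4401.1 KO and on -0.10, -0.02 and 0.17 in the other panels, and are narrower than all genes.

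The members past a fold change of 2 were RPL7A, RPL35 and RPL26, all of the large subunit, while 4.32% of all genes passed this rule in the same direction and 11.1% in the other. RPL7A had 506, 328 and 442 CPM in the KO against 915, 947 and 868 CPM in WT B. Its log2 fold change was -1.18 ± 0.169 (SE, n = 3 and 3, edgeR quasi-likelihood, adjusted p = 0.00213). RPL35, a protein near the exit tunnel, had 148, 92.6 and 129 CPM against 293, 270 and 180 CPM. The groups did not overlap, with WT B library 3B the nearest to the KO, and the log2 fold change was -1.10 ± 0.239 (edgeR quasi-likelihood, adjusted p = 0.0101). RPL26 had 256, 174 and 215 CPM against 418, 467 and 363 CPM (log2 fold change -1.04 ± 0.169, edgeR quasi-likelihood, adjusted p = 0.00335). In each of the 3 genes S24 was the lowest library.

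The sizes differed among members. In the stalk, which recruits elongation factors, RPLP0 fell by 0.52 and RPLP2 by 0.54 on the log2 scale, and RPLP1 had a value of -0.32 that did not pass (edgeR quasi-likelihood, adjusted p = 0.18). RPL5 and RPL11, which form with 5S rRNA the particle that binds MDM2, had log2 fold changes of -0.50 and -0.40, of which RPL5 passed and RPL11 did not (edgeR quasi-likelihood, adjusted p = 0.0197 and 0.158). RPS6, the substrate of S6 kinase, fell by 0.61, RPSA by 0.71, RPS2 by 0.54 and RPL3, at the peptidyl transferase centre, by 0.51. RPS27A, made as a fusion with ubiquitin, fell by 0.41. RPL13A had -0.38 (edgeR quasi-likelihood, adjusted p = 0.13) and RPL41, the smallest ribosomal protein, had -0.43 (adjusted p = 0.166). The called members with the smallest decreases were RPL27A (-0.40), RPS27L (-0.40) and RPL22 (-0.38). Both values above 0 belonged to small subunit members with zinc-binding motifs. RPS27 was at 45.2, 40.1 and 37.9 CPM in the KO and 50.4, 39.1 and 24.8 CPM in WT B (log2 fold change 0.01 ± 0.250). RPS29 was at 102, 79.5 and 92.0 CPM against 128, 60.7 and 55.6 CPM (0.06 ± 0.318), with a wild-type spread wider than any difference between the groups.

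Of the paralog pairs, RPL39L fell by 0.75 on the log2 scale, from 12.9, 8.51 and 6.42 CPM to 6.69, 5.58 and 5.56 CPM (edgeR quasi-likelihood, adjusted p = 0.0731), though its highest KO library lay above the lowest wild-type library. RPL39 had -0.44 (adjusted p = 0.15), RPL36A -0.30 (adjusted p = 0.371), RPL36AL -0.41 (adjusted p = 0.239) and RPL3L -0.41 (adjusted p = 0.614). The paralogs that the rule does not include, RPL22L1, RPL26L1 and RPL7L1, fell by 1.58, 1.03 and 0.70. RPL22L1 went from 44.5 ± 1.87 CPM in WT B to 15.8 ± 4.48 CPM in the KO (SD, n = 3 each), while its partner RPL22 went from 101, 105 and 87.9 CPM to 88.3, 80.0 and 71.9 CPM.

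Genes outside the cytosolic ribosome that serve translation were counted in the same fit, where 22.4% of all genes fell and 21.3% rose. Of 20 other TOP mRNAs, such as those of elongation factors, 15 fell and 0 rose, with a median log2 fold change of -0.52. Of 32 ribosome biogenesis factors 28 fell and 1 rose (median -0.53). DKC1 and FBL, core proteins of the snoRNPs that modify rRNA, fell by 0.82 and 0.78, TSR1, a factor of small subunit maturation, fell by 0.86, and RRP1 rose by 0.54. Of 78 mitochondrial ribosomal proteins 56 fell and 1 rose (median -0.63), and of 11 genes for RNA polymerase I and its factors 5 fell and 1 rose (median -0.18). Unlike the members, the pseudogenes of the family had a median of 0.47 among the 344 tested. Of these 78 rose, which is near the share of all genes that rose, and 21 fell, below the share of all genes that fell.

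The share of other RNA classes moved with this result. Mitochondrially encoded genes took 3.50%, 7.87% and 6.93% of the counts in the KO libraries against 2.37%, 2.01% and 1.96% in WT B, and all 35 tested rose, with a median log2 fold change of 1.45. A list of 73 RNAs without a poly(A) tail took 13.6%, 17.4% and 16.2% against 11.1%, 7.18% and 6.27%. By gene this list went the other way, with 23 of 66 tested that fell, 6 that rose and a median log2 fold change of -0.40. Their part in the members' decrease was not tested. With both classes left out of the total, the members' share was 3.27% in the KO and 4.03% in WT B. Without S24 and S25, the libraries with the highest mitochondrial share, 23 of 81 members fell and 0 rose, against 11.2% of all genes that fell and 5.26% that rose. The KO is then S23 alone, which is assumed to vary like the wild type. Without WT B library 2B, 33 members fell and 0 rose, against 15% and 12.1% of all genes. With upper-quartile normalization, which put the median of all genes at 0.28, 41 members fell, against 15.6% of all genes that fell and 29.1% that rose. DESeq2 had 64 members that fell, against 24% of all genes that fell and 18.1% that rose.

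In HCT116 MSTRG.4401.1 KO the members were near their levels in WT B. At FDR < 0.1, 3 of 80 members rose and 9 fell (edgeR quasi-likelihood, Benjamini-Hochberg adjustment), against 7.57% of all genes that rose and 8.72% that fell. The median log2 fold change was -0.02 in members and 0.00 in all genes, and 0 members passed a fold change of 2, a rule met upwards by 0.996% and downwards by 1.62% of all genes. RPL6, a large subunit protein that also has a known role in the DNA damage response, rose the most, with 336, 396 and 382 CPM against 275, 269 and 282 CPM in WT B (log2 fold change 0.42 ± 0.0573, SE, edgeR quasi-likelihood, adjusted p = 0.00418). RPL38 rose by 0.24 and RPLP2 by 0.19. The groups did not overlap in any of these 3 genes, which follows largely from the call itself and adds no support.

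The lowest value was that of RPS27L, the paralog of RPS27, with 35.2, 37.3 and 34.1 CPM in the KO and 42.5, 46.8 and 48.1 CPM in WT B (log2 fold change -0.38 ± 0.0724, edgeR quasi-likelihood, adjusted p = 0.0158). RPL28 fell by 0.33, RPL3 by 0.32, RPL13A by 0.31, RPS9 by 0.22, RPL22 by 0.21, RPL10 by 0.18, RPL17 by 0.17 and RPLP0 by 0.14. RPL3 had 1084, 998 and 1109 CPM against 1360, 1244 and 1352 CPM, and RPL13A had 1163, 1109 and 1179 CPM against 1388, 1446 and 1414 CPM, both without overlap. RNAs without a poly(A) tail rose in 44 of 59 cases with a median of 0.57, and 9 of 34 mitochondrially encoded genes fell, and their part in the members' values was not tested. With all HCT116 libraries in one fit by edgeR, 0 members were called, and of all genes 0.0267% were called higher and 0.0833% lower. Without S8 and S9 the same edgeR fit again called 0 members, against 1% and 1.74% of all genes. Set against WT A, 15 members fell and 0 rose, against 9.71% and 9.18% of all genes, and RPL6 turned to -0.78 and RPL38 to -0.13. Without WT B library 3B, 7 members were called, and the share of all genes in that fit is not given here.

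The labels give a KO of the same DBD in both lines, and the difference between its effects was tested as an interaction, the log2 fold change in A549 minus that in HCT116. It was below 0 at FDR < 0.1 in 39 of 81 members and above 0 in none (edgeR quasi-likelihood, Benjamini-Hochberg adjustment), while 15.4% of all genes were lower and 11.6% higher. The median of the members was -0.57, that of all genes 0.10. All 39 were among the members that fell in A549, whose fold change is part of the difference, so this adds no support. RPL6, with opposite called changes in the lines, differed the most (-1.37 ± 0.190, edgeR quasi-likelihood, adjusted p = 0.000557). In A549 it went from 230, 347 and 343 CPM to 196, 145 and 168 CPM. There the KO lay below WT B in every library, the reverse of HCT116 with WT B as control. The rise of RPL6 in HCT116 depended on that control. WT A lay above WT B by a log2 fold change of 1.19, and against WT A the KO value was below 0. The control matters for the other members too, since WT A lay above WT B in 68 of 80 members (median 0.21). The interaction was not fitted with WT A. RPL35 differed by -1.22, RPL7A by -1.14 and RPL26 by -1.03, and their log2 fold changes in HCT116 were 0.08, -0.07 and -0.04, none of them called. These 4 were the members whose difference also passed 1 in size on the log2 scale, as did 3.98% of all genes downwards and 7.43% upwards. Among the interactions past the threshold, those of RPS27A (-0.57), RPL13 (-0.53) and RPL21 (-0.52) were the smallest. Of the 9 members that fell in HCT116, 8 also fell in A549, as did the 3 that rose in HCT116. With 57 of 81 members lower in A549, such overlaps are likely for any member and show neither a shared nor an opposite effect. For RPS27L, which fell in both, the interaction was -0.05 ± 0.182 (edgeR quasi-likelihood, adjusted p = 0.922). Without S24 and S25, which leaves S23 alone in the A549 KO, 30 members were below 0 at the same threshold, against 13.3% of all genes that were lower and 6.13% higher, and 28 of these 30 were among the 39.

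The other A549 KO, of MSTRG.2513.6, was compared with the same WT B libraries. No member of 81 was called in either direction by edgeR's quasi-likelihood test or by DESeq2, and 4 and 6 were at an unadjusted p under 0.05. At that unadjusted level were also 4300 and 4430 of all 25666 genes tested. Of all genes, edgeR called 5.97%, 2.77% higher and 3.19% lower, and DESeq2 called 1252 of the 25666 higher and 1232 lower. The median log2 fold change of the members was -0.10 and that of all genes -0.03, and 13 of 81 members were above 0. The KO and WT B libraries did not overlap in 7 of 81 members, against 22.9% of all genes. The median moved between -0.23 and 0.02 as libraries were left out one at a time. RPL27 was at 90.1, 79.4 and 66.7 CPM against 151, 110 and 88.0 CPM, with overlap (log2 fold change -0.58, edgeR quasi-likelihood, adjusted p = 0.275). RPS19, a protein mutated in Diamond-Blackfan anaemia, had 1754, 1772 and 1803 CPM against 1496, 1551 and 1501 CPM and the highest value of the members (0.23, adjusted p = 0.307), without overlap. RPL3L, at under 1 CPM, had the lowest value (-1.04, adjusted p = 0.501). RPL7A, RPL35 and RPL26 had 0.17, 0.04 and -0.36 here, against -1.18, -1.10 and -1.04 for the same genes in MSTRG.4401.1 KO. The comparisons share their control libraries.

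In HCT116 MSTRG.34636.7 KO against WT A, 0 of 80 members passed FDR < 0.1 by edgeR or by DESeq2. Of all genes, edgeR called 2.15%, 1.18% higher and 0.972% lower, and the share that DESeq2 called is not given here. The values leaned upwards, with 65 of 80 members above 0 and a median log2 fold change of 0.17, against -0.02 for all genes. RPLP0 was at 3083, 3228 and 2833 CPM against 2545, 1799 and 2345 CPM, with no overlap and a log2 fold change of 0.44 ± 0.192 (edgeR quasi-likelihood, adjusted p = 0.335). The highest value was that of RPS28, with 197, 205 and 181 CPM against 115, 113 and 166 CPM (0.55 ± 0.188, adjusted p = 0.235). RPL36A lay the other way, with 75.6, 84.0 and 106 CPM against 118, 107 and 136 CPM (-0.46 ± 0.183, adjusted p = 0.297). The wild-type libraries differed among themselves. The median deviation of the members from their WT A mean was -0.29 in 2A and 0.28 in 3A on the log2 scale. 2A held 3.24% of mitochondrially encoded counts and 9.11% of RNAs without a poly(A) tail, whose part in this spread was not tested. Without WT A library 3A, 1 member rose, and the share of all genes in that fit is not given here. Set against WT B in place of WT A, 65 members rose and 2 fell, with 23% and 22.9% of all genes called in these directions and a median of 0.43.

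That difference between controls was also seen in the wild-type cells alone. In WT A against WT B, 7 of 80 members rose and 0 fell at FDR < 0.1 (edgeR quasi-likelihood, Benjamini-Hochberg adjustment), while 5.56% of all genes rose and 6.71% fell. The median was 0.21 in members and 0.03 in all genes, and 68 of 80 members were above 0. RPS27 and RPL6 passed a fold change of 2, as did 3.16% of all genes in this direction and 3.9% in the other. RPS27 had 87.4, 74.9 and 106 CPM in WT A and 34.3, 44.4 and 37.7 CPM in WT B (log2 fold change 1.20 ± 0.187, edgeR quasi-likelihood, adjusted p = 0.00567). RPL6 had 600, 509 and 782 CPM against 275, 269 and 282 CPM (1.19 ± 0.192, adjusted p = 0.00658). The called members also included RPL36A (0.90), RPL4 (0.73), RPS6 (0.66) and RPS4X, the X-linked copy of RPS4 (0.54). In each of the 7 called genes every WT A library lay above every WT B library, which follows largely from the call itself and adds no support. MSTRG.34636.7 KO, numbered like WT A, was on the side of WT A, with 77.9, 70.3 and 111 CPM of RPS27 and 650, 661 and 767 CPM of RPL6. Without WT A library 2A, 32 members rose, against 7.09% of all genes that rose and 7.73% that fell. Without any one of the WT B libraries 4 members were called, and the shares of all genes in those fits are not given here. What the letters A and B stand for is not given in the labels, and it cannot be told apart from the wild-type sets.

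For HCT116 MSTRG.2513.6 KO, where the labels put S11, S8 and S9 in one group, 0 of 80 members passed FDR < 0.1 by edgeR. Of all genes, edgeR called 1.42%, 0.792% higher and 0.629% lower. DESeq2 called 12 members higher and 2 lower, against 12.4% and 6.4% of all genes. With the spread between S11 and the other libraries of this group, a count of 0 does not show that the members did not change. RPL9 shows the spread within the group, with 283 CPM in S11, 76.0 in S8 and 84.1 in S9, where HCT116 WT B had 262, 277 and 269 CPM and A549 MSTRG.2513.6 KO had 85.0, 86.2 and 83.7 CPM. RPS16 was at 547 CPM in S11, 988 in S8 and 976 in S9, where HCT116 WT B had 445, 471 and 475 CPM. RPS27L was at 45.4 CPM in S11, 116 in S8 and 128 in S9. In these genes S11 lay beside the HCT116 libraries and S8 and S9 among those of A549. Without S11, 63 members were called, 33 higher and 30 lower, against 30.2% and 32.4% of all genes. Without S8 and S9, where the lone KO library is assumed to vary like the wild type, 13 members were higher and 7 lower, against 12.7% and 15.9% of all genes. RPL3 was then at 0.35 and RPL36AL at -0.65 on the log2 scale.

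**Figure D3:**
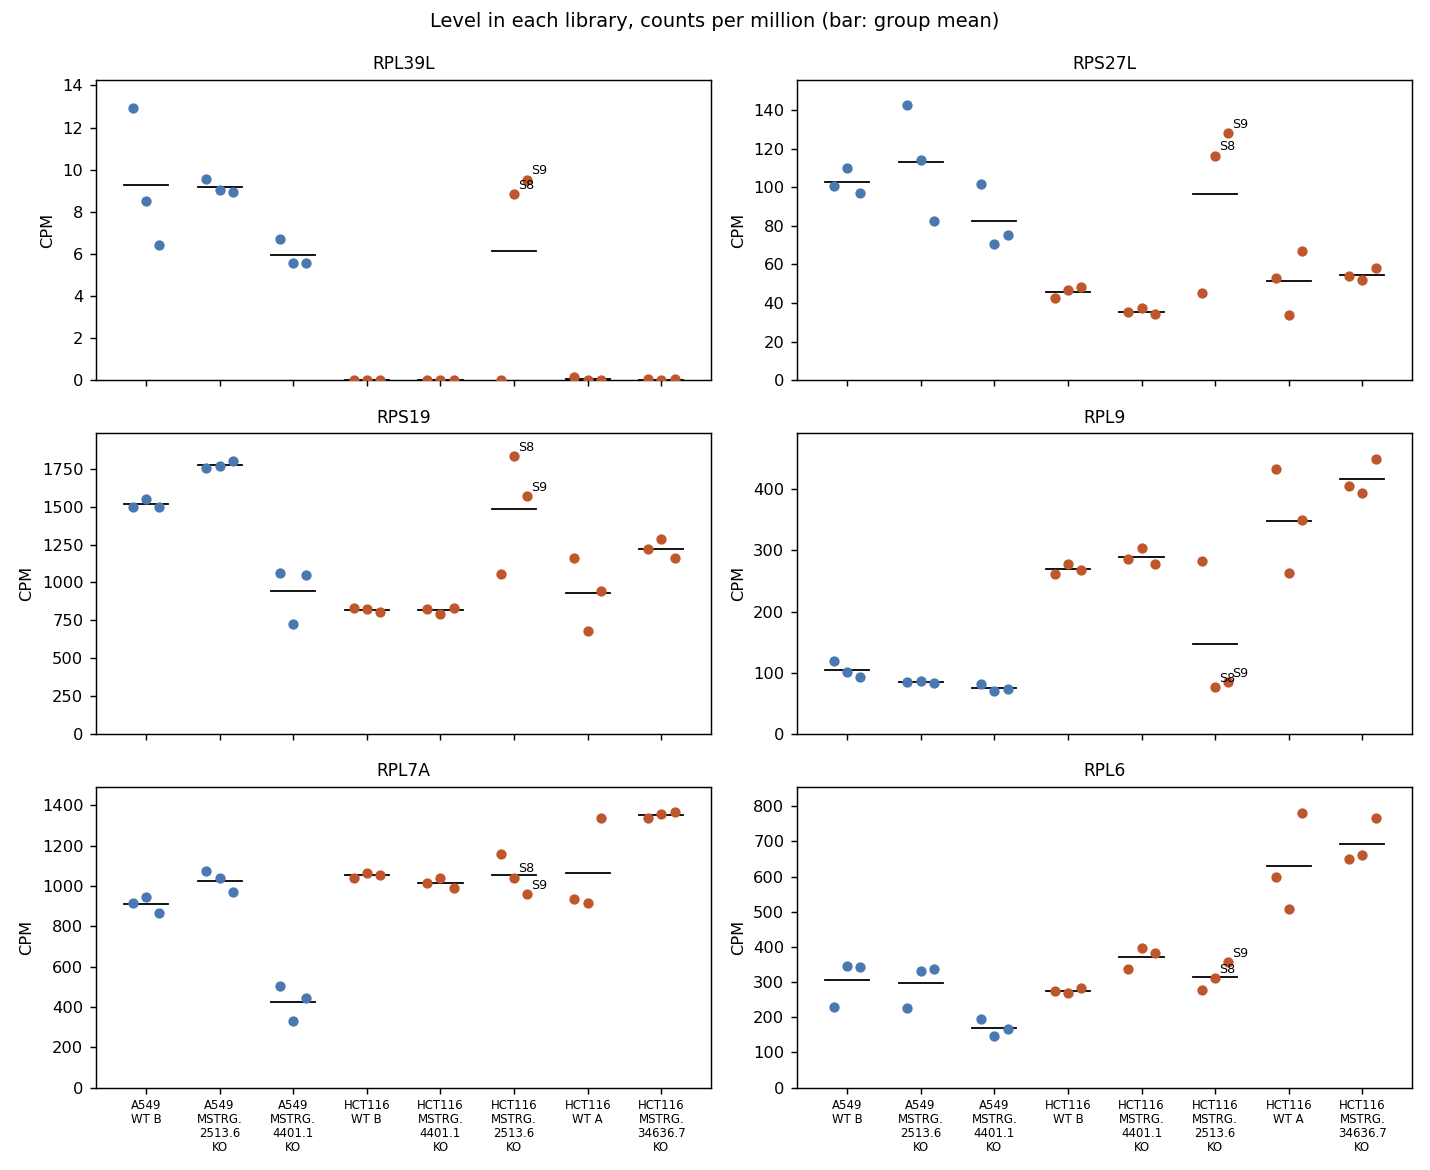
Levels in CPM (y axes, from 0) of RPL39L, RPS27L, RPS19, RPL9, RPL7A and RPL6 in each of the 24 libraries, by group (x axis), with a point for each library and a bar for the group mean. S8 and S9 lie apart from S11 within HCT116 MSTRG.2513.6 KO for RPL39L, RPS27L and RPL9, and RPL7A is lowest in the 3 A549 MSTRG.4401.1 KO libraries.

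Between the wild-type lines, A549 WT B was higher than HCT116 WT B in 28 of 81 members and lower in 26 (FDR < 0.1, edgeR quasi-likelihood, Benjamini-Hochberg adjustment), with 31.2% and 31.7% of all genes called in these directions. The libraries of both lines did not overlap in 51 of 81 members, against 66% of all genes. RPS27L had 101, 110 and 96.7 CPM in A549 and 42.5, 46.8 and 48.1 CPM in HCT116 (log2 fold change 1.42 ± 0.0891, edgeR quasi-likelihood, adjusted p = 8.96e-06). RPS19 had 1496, 1551 and 1501 CPM against 834, 821 and 805 CPM (1.15 ± 0.0671, adjusted p = 6.26e-06). RPS16 had 971, 885 and 703 CPM against 445, 471 and 475 CPM (1.15 ± 0.150, adjusted p = 0.000429). RPL9, lower in A549, had 119, 101 and 93.5 CPM against 262, 277 and 269 CPM (-1.10 ± 0.128, adjusted p = 0.00023). With RPL39L, these were the members past a fold change of 2, a rule that 17.2% of all genes passed upwards and 18.5% downwards. Among the rest, RPS7 (0.82) and RPL13A (0.81) were higher in A549, and RPL14 (-0.82) and RPL34 (-0.81) were lower. The functional groups were split in this comparison. In the 5S particle both members were lower in A549. RPL5 had 233, 282 and 269 CPM against 452, 434 and 467 CPM (-0.53 ± 0.0618, edgeR quasi-likelihood, adjusted p = 0.000237), and RPL11 had 138, 116 and 88.5 CPM against 171, 190 and 197 CPM (-0.43 ± 0.186, adjusted p = 0.0874). In the stalk RPLP1 was higher in A549 (0.47), RPLP0 lower (-0.13) and RPLP2 at -0.03, the last without a call (adjusted p = 0.867). RPS27A (0.69), RPL10, which is added late in large subunit assembly (0.70), RPS6 (0.28) and RPSA (0.19) were higher, and RPL3 (-0.43) and RPL22 (-0.51) lower. RPL22L1, the paralog of RPL22 outside the rule, was at 44.5 ± 1.87 CPM in A549 and 130 ± 0.904 CPM in HCT116.

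The members are spread over 21 chromosomes, and the difference between the lines is detailed for 6 chromosomes chosen after the values were seen. On chromosome X all 4 members were above 0, that is higher in A549, with a median log2 fold change of 0.61 against 0.52 for the other genes tested there. On chromosomes 15 and 2 all 4 members were above 0, with medians of 0.65 and 0.53 against 0.43 and 0.31 for the other genes. On chromosome 4 none of 3 and on chromosome 6 none of 4 members were above 0 (medians -0.81 and -0.64 against -0.41 and -0.35). On chromosome 19, which holds RPS16 and RPS19, 8 of 12 members were above 0, with a median of 0.42 against -0.08. Outside these 6, members and other genes had medians of opposite sign on chromosomes 3 (0.11 against -0.20), 11 (0.06 against -0.02) and 12 (-0.03 against 0.14). The same held on chromosomes 14 (-0.08 against 0.21) and 20 (-0.09 against 0.22), and the remaining chromosomes had medians of like sign. Chromosome copy numbers were not measured.

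**Figure D4:**
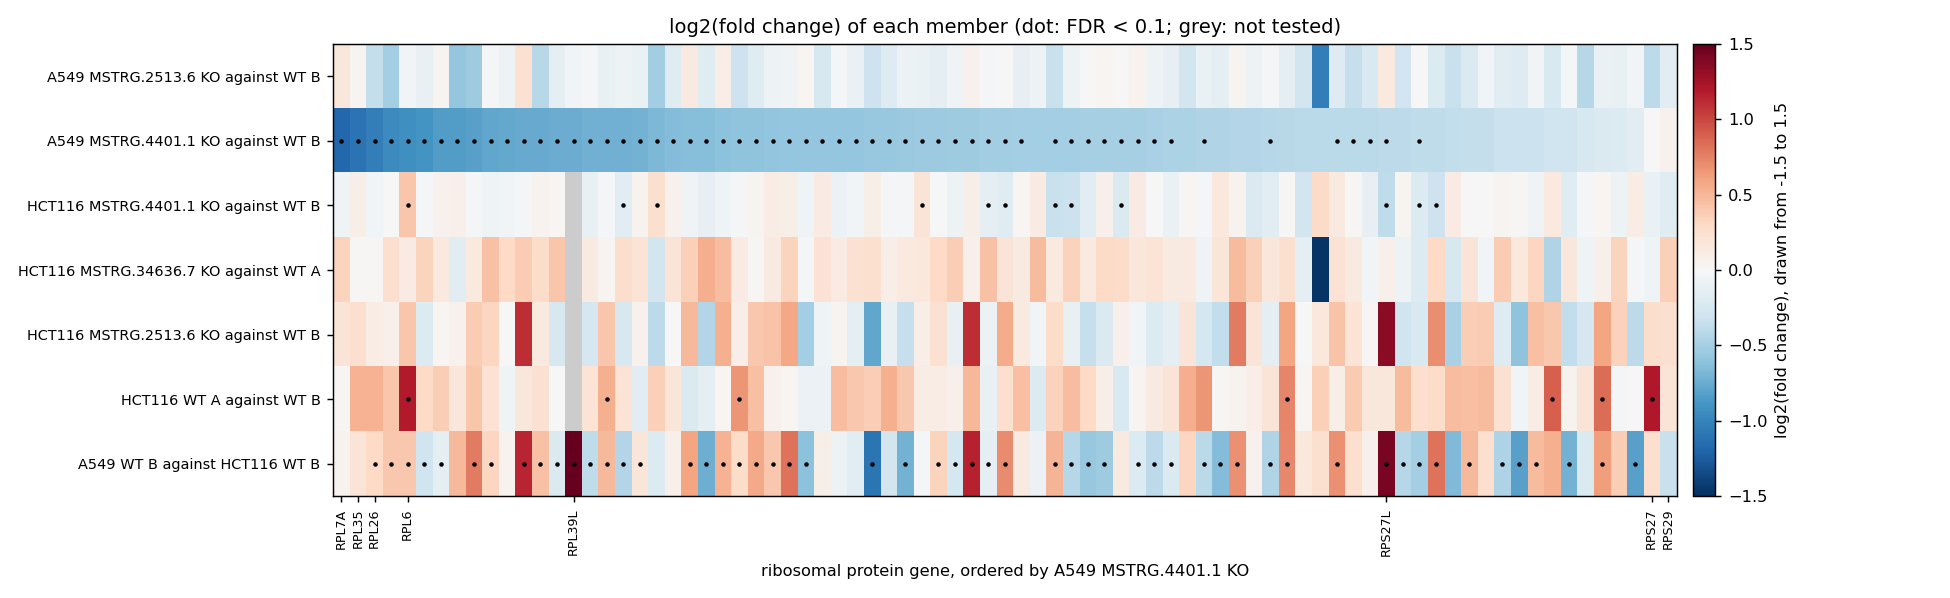
log2 fold change (colour, cut at -1.5 and 1.5) of 81 members (columns, 8 of them labelled) in 7 comparisons (rows); dots mark FDR < 0.1 and grey marks members not tested. The A549 MSTRG.4401.1 KO row is below 0 for 79 of 81 members with 57 dots, and the row for A549 against HCT116 wild type holds 28 dots above and 26 below 0.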

How the data were processed

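The authors trimmed reads with Trim Galore 0.6.6, ran FastQC 0.11.9, aligned with HISAT2 2.2.1 to GRCh38 and quantified genes with StringTie, per the labels and the study's methods. The annotation and whether counting used the strand are not given in the sources used here. The deposited values are whole-number counts per gene symbol and library, not normalized and not pooled, for 60641 symbols in every library. A further 3 symbols listed only in the libraries 1A to 3A were left out.

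From the counts, each comparison was fitted on its own groups with edgeR 4.0.16 (limma 3.58.1, R 4.3.3): filterByExpr, TMM, glmQLFit, glmQLFTest and Benjamini-Hochberg adjustment over all genes tested, with FDR < 0.1 as the threshold and |log2(fold change)| > 1 as a second rule, after the study's methods. The interaction was fitted over 12 libraries. CPM are relative to the library total, and lengths came from GENCODE release 44. Levels at 0 were set against 3 counts in each library. Library totals ran from 25799359 to 102261808 counts, so 3 counts are 0.0293 to 0.116 CPM. With 3 libraries a group, an exact permutation test of 1 value cannot go below p = 0.1, and none was used. Named genes were members past both rules, the 3 highest and 3 lowest called in each comparison, the paralog pairs, stalk and 5S RNP genes, RPS6, RPL41, RPSA and RPS27A, and the 3 highest and 3 lowest levels per kb; RPL7A and the order per coding kb among the levels, RPL27, RPS19 and RPS28 in comparisons without calls, RPS29, and genes of the lists were chosen after their values were seen. The members and lists were chosen with earlier results of these data known. The alternatives were DESeq2 1.42.0, upper-quartile normalization, no filter, scaling without the members and the mitochondrial and non-polyadenylated RNAs, a gene length offset, libraries left out, a fit per cell line, the other HCT116 wild type, and the replicate number as a block. The tests were tested on simulated data, with changes placed in genes drawn from all but the lowest levels. Most small changes were missed in every comparison, and large ones were never called in HCT116 MSTRG.2513.6 KO. The changed genes were not chosen among the members, so these rates are not those of the members. A count of 0 calls still does not show that levels were equal. Some members are counted but not reported by name here. Starts and sequences came from RefSeq.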

Additional observations from a re-analysis of the deposited data

Results flagged for a closer look

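The effect of MSTRG.4401.1 KO differed between A549 and HCT116 in 39 members by the interaction test (edgeR quasi-likelihood, FDR < 0.1), always lower in A549. The members named with such a difference were RPL6 (-1.37 on the log2 scale), RPL35 (-1.22), RPL7A (-1.14), RPL26 (-1.03), RPL7 (-0.80), RPSA (-0.79), RPLP2 (-0.77), RPL5 (-0.61), RPS6 (-0.61), RPS27A (-0.57), RPL13 (-0.53) and RPL21 (-0.52). The value of RPL6 depends on HCT116 WT B as control, since WT A lay above WT B by 1.19 on the log2 scale. WT A also lay above WT B in 68 of 80 members (median 0.21). The interaction was not fitted with WT A, so how many of the 39 depend on the control is not known. Mitochondrially encoded and non-polyadenylated RNAs took larger shares of the counts in every A549 MSTRG.4401.1 KO library than in any A549 WT B library. In HCT116 the shares of MSTRG.4401.1 KO and WT B libraries overlapped. By gene, the non-polyadenylated list ran the other way, with 23 of 66 tested that fell and 6 that rose in A549, and 44 of 59 that rose and 0 that fell in HCT116. The part of either class in the difference was not tested.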

How the results depend on the processing

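Of the values of single named members, 1217 kept their side of the threshold as each library was left out, 98 lost it, 47 gained it and 0 reversed. A change of sign was counted as a reversal only for a value called in the main fit or in the alternative. Values without a call may therefore have changed sign among those kept. Under the other alternatives 1241 were kept, 65 lost it, 63 gained it and 11 reversed. The cause of these changes was not tested. Calls over all genes also move with the setting. Where no share of all genes stands beside a count of members, here or above, the count does not single out the members. With the other HCT116 wild type as control, MSTRG.4401.1 KO reversed for RPL38 (-0.13), RPL6 (-0.78) and RPL36A (-0.76) with a member median of -0.31, MSTRG.34636.7 KO reversed for RPS27 (1.14), RPL36A (0.44) and RPL11 (0.39) with 67 members called and a median of 0.43, and HCT116 MSTRG.2513.6 KO had 1 member called and a median of -0.23. Without S8 and S9 the latter had 20 called and reversed for RPL3 (0.35), RPL36AL (-0.65), RPLP0 (0.18), RPL5 (0.29) and RPL41 (-0.48). It had 1 called with upper-quartile normalization, 1 with the length offset, 14 with DESeq2 and 13 with all HCT116 libraries in one fit, and a median of 0.00600 with no filter. The fit of all HCT116 libraries left 0 called for HCT116 MSTRG.4401.1 KO. The same fit without S8 and S9, chosen after seeing the data, left 0 called there and 7 called in MSTRG.34636.7 KO. WT A against WT B had 22 called with upper-quartile normalization, 13 with DESeq2, 17 with the length offset and 4 with the replicate block. Without S24 and S25, chosen after seeing the data, A549 MSTRG.4401.1 KO had 23. As each library was left out, the members called ranged from 33 to 67 in A549 MSTRG.4401.1 KO (median -0.66 to -0.40), from 7 to 11 in HCT116 MSTRG.4401.1 KO (-0.05 to 0.03), from 0 to 1 in MSTRG.34636.7 KO (0.04 to 0.31), from 0 to 63 in HCT116 MSTRG.2513.6 KO (0.04 to 0.12), from 4 to 32 in WT A against WT B (0.11 to 0.34), from 43 to 60 in A549 against HCT116 (-0.03 to 0.19) and from 32 to 59 for the interaction, the highest without A549 WT B library 3B (-0.73 to -0.41). They stayed at 0 in A549 MSTRG.2513.6 KO. Out of totals without mitochondrially encoded and non-polyadenylated genes, the members' share was 3.87% in place of 3.42% in A549 MSTRG.2513.6 KO, 3.27% in place of 2.56% in A549 MSTRG.4401.1 KO, 4.03% in place of 3.61% in A549 WT B, 4.17% in place of 3.79% in HCT116 MSTRG.4401.1 KO, 4.27% in place of 3.88% in HCT116 WT B and 5.89% in place of 5.41% in MSTRG.34636.7 KO.

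MSTRG.34636.7 KO and WT A share replicate numbers, but their deviations from the group means correlated by 0.011, 0.018 and 0.036 across genes, so the numbers were not taken as pairs, although each KO library correlated best with its own number. With the replicate block 0 members were called in this comparison (median 0.20) and 52 between the wild-type lines. At these depths the members other than RPL10L, RPL3L and RPL39L were far above the level of 3 counts, so the number of libraries and their spread, not counting error, limits the comparisons.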
